A study of Mus musculus with 7 samples.

Results

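The immune cell genes studied here are 44 listed mouse genes that mark leukocytes and their lineages, of which 43 were measured among 18193 genes. They fall into 4 groups: 8 measured pan-leukocyte genes, 20 myeloid genes, 6 Langerhans cell and class II genes and 9 lymphocyte genes. Il2rg is not analysed here. Each gene was read from 1 probe set, a group of short probes that report 1 transcript, taken as the one with the highest mean over all arrays among those with a single gene symbol. Levels are the deposited log2 values, so a difference of 1 is a doubling, and levels are compared between arrays within a gene, never between genes.

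Tumour cells positive for CD34 and Epcam were sorted from mouse skin tumours made with DMBA, a carcinogen, and TPA, a tumour promoter, and their RNA was measured on 7 Affymetrix arrays. Epcam is an epithelial surface protein, so the gate was meant for epithelial tumour cells, and leukocytes were not the cells sorted for. The groups were carcinoma with GFP in the title (1 array), papilloma with GFP in the title (1 array), untagged carcinoma (3 arrays, called carcinoma 1 to 3) and untagged papilloma (2 arrays, called papilloma 1 and 2), which gives 4 carcinoma and 3 papilloma arrays. The labels do not say what the GFP tag marks, give no strain, age or genotype beyond the gene name Nr2f2 placed before the tumour type on every sample, and do not state whether each array had its own animal. P-values therefore reflect the spread of these arrays alone, which may be technical.

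Leukocytes share a set of genes for signalling and a mobile actin skeleton, and the lineages add their own. Macrophages and other myeloid cells carry receptors for colony-stimulating factor, immunoglobulin and complement, and the activating receptors of these cells signal through small adaptors with tyrosine motifs. Langerhans cells are the antigen-presenting cells of the epidermis, where they sit between keratinocytes; like other dendritic cells they load peptides on MHC class II, a pair of chains that is guided through the cell by the invariant chain and whose genes are switched on by the coactivator encoded by Ciita. T cells read such peptides through a receptor that signals through the CD3 chains. In bulk RNA, more cells of a type and more RNA per cell cannot be told apart.

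The promoters of 2 class II genes and of a myeloid protease are shown because H2-Aa passed the test for the tag below and H2-Eb1 did not, while both windows hold the same class II element, and because Ctss has the widest range among the untagged arrays. The windows run from 250 bases before to 50 bases after the annotated start, written 5′ to 3′ on the gene's own strand, and come from RefSeq (GRCm38.p6). Capitals mark the inverted CCAAT of the Y box with its flank (CTGATTGG), a known element of class II promoters, and in Ctss the recognition sequence of the myeloid factor PU.1 (GAGGAAGT), which stands there on the opposite strand.
H2-Aa, chr17:34287774-34288073, minus strand: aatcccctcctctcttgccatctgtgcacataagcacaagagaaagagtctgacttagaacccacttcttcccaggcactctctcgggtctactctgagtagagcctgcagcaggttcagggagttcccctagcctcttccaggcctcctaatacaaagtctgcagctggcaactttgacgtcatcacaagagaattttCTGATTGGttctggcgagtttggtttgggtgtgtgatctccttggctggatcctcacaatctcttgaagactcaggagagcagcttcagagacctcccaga
H2-Eb1, chr17:34305617-34305916, plus strand: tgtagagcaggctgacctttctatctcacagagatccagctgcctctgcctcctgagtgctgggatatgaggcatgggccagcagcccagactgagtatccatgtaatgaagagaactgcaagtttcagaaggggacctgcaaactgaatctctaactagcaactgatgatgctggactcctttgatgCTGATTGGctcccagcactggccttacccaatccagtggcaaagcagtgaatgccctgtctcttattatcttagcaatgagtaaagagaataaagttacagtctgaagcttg
Ctss, chr3:95526536-95526835, plus strand: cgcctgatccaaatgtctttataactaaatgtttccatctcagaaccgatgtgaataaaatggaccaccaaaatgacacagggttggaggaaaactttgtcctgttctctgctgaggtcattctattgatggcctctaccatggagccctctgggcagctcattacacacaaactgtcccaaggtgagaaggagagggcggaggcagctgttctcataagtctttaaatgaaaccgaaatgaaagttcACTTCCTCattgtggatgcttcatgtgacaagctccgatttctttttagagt

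Both motifs were searched on both strands of 32851 promoter windows, and no member held both. CTGATTGG was found in 4.1% of all windows and, among the 29 members with a window, in H2-Aa at bases 200 to 207 and in H2-Eb1 at bases 189 to 196, counted from the 5′ end of the window. GAGGAAGT was found in 3.2% of all windows and in 3 members, C1qc, Cd53 and Ctss, where it covers bases 249 to 256. The PU.1 letters were chosen after the levels were seen. A match describes letters in the window and nothing about binding.

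The sorted cells carried keratinocyte genes. The mean log2 level over 14 such genes (Krt5, Krt14, Epcam and others) was 10.10 in carcinoma GFP and 10.05 in papilloma GFP, compared with 11.32 to 11.81 in the untagged arrays. All 14 were lower with the tag, 10 of them called. Epcam, a marker of the gate, differed by −2.45 between tagged and untagged arrays (limma adjusted p = 0.00992). The 2 GFP-tagged arrays stood apart from the other 5. Their mean over 15 endothelial genes was 10.86 and 10.83, against 5.42 to 5.90 in untagged arrays, and over 13 fibroblast genes 11.47 and 10.42, against 5.52 to 7.47. The 3′ minus 5′ difference of the Gapdh control probe sets, which grows as RNA or its copies lose their 5′ end, was 3.19 in each tagged array, against −0.04 to 0.06 in the untagged arrays. The same difference for Actb was 2.21 and 2.58 in the tagged arrays, against 0.51 to 0.87 in the untagged arrays. Among the untagged arrays carcinoma 3 had the lowest fibroblast mean (5.52, against 6.77 to 7.47 in the other 4).

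The mean levels of all 4 groups of immune genes were higher in the tagged arrays. The mean log2 level of the pan-leukocyte genes was 7.72 in carcinoma GFP and 7.19 in papilloma GFP, compared with 5.11 to 6.12 in untagged arrays. Myeloid genes averaged 7.24 and 6.98 in the tagged arrays, against 4.996 to 6.15 in untagged arrays. Langerhans and class II genes averaged 7.75 and 7.81 in the tagged arrays, against 5.68 to 7.03. Lymphocyte genes had the smallest gap, with 5.95 and 5.44 in the tagged arrays, against 4.80 to 5.27. In each of the 4 groups both tagged arrays lay above all 5 untagged arrays.

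**Figure D1:**
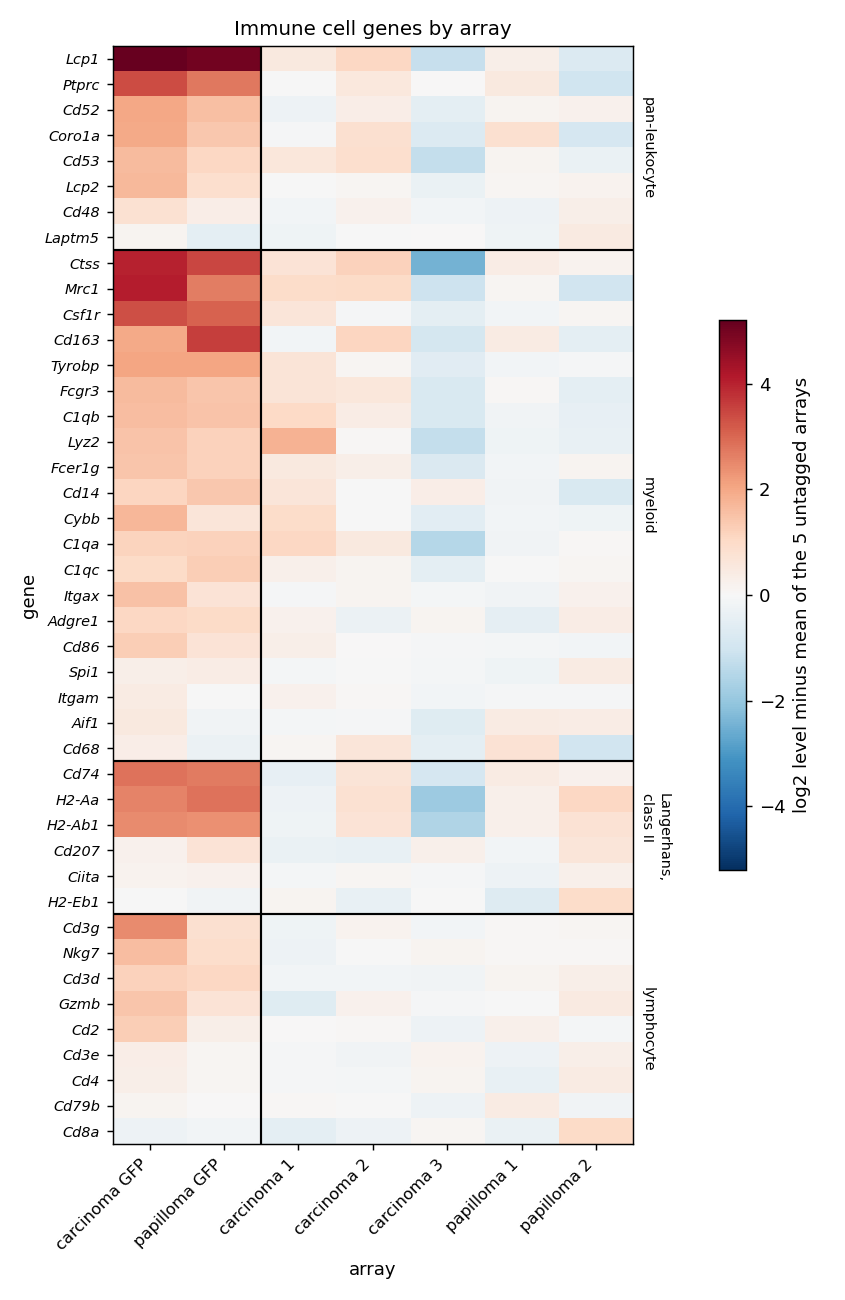
Log2 level of each of the 43 immune cell genes in each array, minus the mean of the 5 untagged arrays, with genes grouped by lineage in rows and arrays in columns. Most rows are high in both GFP columns on the left, Lcp1 the most, and the untagged carcinoma 3 column is low for many myeloid genes.

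**Figure D2:**
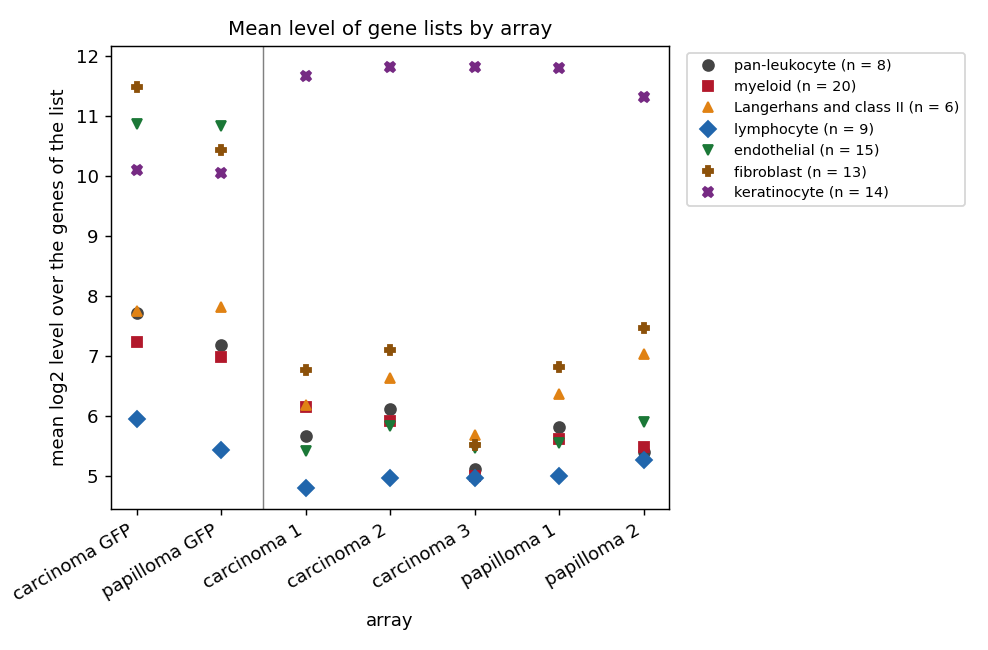
Mean log2 level over the genes of each list (vertical axis) in each array (horizontal axis), for the 4 groups of immune genes and for endothelial, fibroblast and keratinocyte genes. Points of 1 list may be compared between arrays, not between lists; the immune, endothelial and fibroblast lists are higher and the keratinocyte list lower in both GFP arrays on the left.

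Between carcinoma and papilloma no immune gene passed the test. The comparison asks what separates malignant from benign tumours, and limma with Benjamini-Hochberg adjustment over all 18193 genes called 0 of 43 members, against a background of 0.0% of all genes. At an unadjusted p under 0.05 it found 0 members and 112 genes in all (0.616%). Of the members 20 had a mean above and 23 a mean below that of papillomas, and the median difference was −0.02, and over all genes also −0.02. The balance of signs changed with the tagged arrays: 6 of 43 members lay above 0 without carcinoma GFP (median −0.30) and 33 without papilloma GFP (median 0.29). Either fit leaves the tag in 1 tumour type only, so the tag difference enters the tumour difference and the 2 cannot be told apart. The replicate numbers were assumed to pair the arrays, which the labels do not state. A fit with them as a block leaves out carcinoma 3, which has no partner. In that fit 29 of 43 members lay above 0 (median 0.21), against 9277 of all 18193 genes (median 0.005). Of the members 6 had an unadjusted p under 0.05 (2.75% of all genes) and 0 were called. No member had carcinoma and papilloma arrays that did not overlap, against 0.506% of all genes that lay wholly higher and 0.912% wholly lower in carcinoma.

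Of the Langerhans and class II genes, all 6 had a lower mean in carcinoma, with a median difference of −0.51, but none passed the test and every 95% interval crossed 0. H2-Aa, the alpha chain of the class II molecule I-A, had log2 levels of 9.66 in carcinoma GFP and 6.83, 7.89 and 5.22 in carcinoma 1 to 3, against 9.92 in papilloma GFP and 7.37 and 8.19 in papilloma 1 and 2. The ranges overlap, and the lowest value is that of carcinoma 3. The mean difference was −1.09 (SE 1.09, 95% interval −3.66 to 1.48, limma adjusted p = 1), and without carcinoma 3 it was −0.37. H2-Ab1, the beta chain that pairs with it, had 9.85 in carcinoma GFP and 7.17, 8.09 and 5.83 in carcinoma 1 to 3, against 9.75, 7.66 and 8.15 in papilloma GFP, 1 and 2, a difference of −0.79 (SE 0.97). Again carcinoma 3 was the lowest array and the tagged pair the highest.

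Cd74, which encodes the invariant chain that guides class II molecules to the peptide-loading compartment, had log2 levels of 9.69 in carcinoma GFP and 6.44, 7.53 and 5.98 in carcinoma 1 to 3, against 9.56, 7.28 and 7.09 in papilloma GFP, 1 and 2. Its difference was −0.57 (SE 1.01), and it was 0.22 without papilloma GFP, a fit in which only carcinoma holds a tagged array. Cd207 encodes langerin, the lectin that defines Langerhans cells. It had 5.53 in carcinoma GFP and 4.94, 4.92 and 5.55 in carcinoma 1 to 3, against 5.998, 5.17 and 5.91 in papilloma GFP, 1 and 2. The carcinoma arrays reach into the papilloma range, and the difference of −0.46 had a 95% interval of −1.14 to 0.23 (exact two-sided permutation p = 0.229, where 35 splits allow no p below 0.0571). H2-Eb1, the beta chain of the class II molecule I-E, differed by −0.11 and Ciita, the class II coactivator, by −0.04.

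The median of the Langerhans and class II group was −0.47 over the untagged arrays alone and −0.38 in a fit that also held the tag. The median was −0.14 with the replicate numbers as a block. Within the tagged pair the median difference was 0.03, with 3 of 6 genes higher in carcinoma GFP. The tag was on 1 of 4 carcinoma and 1 of 3 papilloma arrays. A fit without the tag therefore takes a small share of each tag difference off the tumour difference. In that fit the endothelial list had lower means in carcinoma for 15 of 15 genes (median −0.54) and the fibroblast list for 12 of 13 (median −0.67), none of them called. Over the untagged arrays alone these 2 medians were −0.15 and −0.765. They were −0.15 and −0.18 in the fit that held the tag and −0.08 and 0.28 with the block. The part of these lists in the class II values was not tested.

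Of the myeloid genes 10 lay above and 10 below 0, with a median of 0.05. That median ran from −0.27 without carcinoma GFP to 0.53 without papilloma GFP, fits that leave the tag in 1 tumour type only. With the replicate block 17 of 20 lay above 0 (median 0.37), against 9277 of all 18193 genes. In that fit 5 myeloid genes had an unadjusted p under 0.05 with none called: Mrc1 (1.44), Cybb (0.80), C1qb (0.70), Fcgr3 (0.63) and Ctss (0.63). Tyrobp, the adaptor that carries signals of many myeloid receptors, had log2 levels of 7.91 in carcinoma GFP and 6.51, 5.93 and 5.27 in carcinoma 1 to 3, against 7.87, 5.67 and 5.79 in papilloma GFP, 1 and 2. Its difference was −0.04 (95% interval −1.86 to 1.78), and the untagged arrays alone gave 0.17. Of the myeloid genes with the smallest unadjusted p, Aif1, an actin-binding protein of macrophages and microglia, differed by −0.30 (SE 0.30), Itgam, the alpha chain of the integrin Mac-1, by 0.19, and Spi1, which encodes PU.1, by −0.17. The largest myeloid differences in either direction were 0.67 for Mrc1 and −0.67 for Cd163, both scavenger receptors of macrophages, and neither passed the test.

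The pan-leukocyte genes had 5 members above and 3 below 0, with a median of 0.05. That median ran from −0.45 without carcinoma GFP to 0.37 without papilloma GFP, again with the tag in 1 tumour type only. With the block 8 of 8 lay above 0 (median 0.33), against 9277 of all 18193 genes, and Cd53 (0.75) was the member with an unadjusted p under 0.05. Ptprc encodes CD45, the phosphatase that defines leukocytes. It had log2 levels of 8.96 in carcinoma GFP and 5.53, 6.13 and 5.61 in carcinoma 1 to 3, against 8.30, 6.06 and 4.51 in papilloma GFP, 1 and 2. Its difference was 0.27 with a 95% interval of −2.42 to 2.96 (SE 1.14). The SE was 0.38 in the fit that held the tag, where the difference was 0.53, and neither fit called it. The difference of Cd52, a small glycoprotein of lymphocytes and monocytes, was −0.25. Those of Cd53, a leukocyte tetraspanin, and of Laptm5, a lysosomal protein of blood cells, were 0.18 and 0.06.

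The lymphocyte genes had 5 members above and 4 below 0, with a median of 0.01. Cd3e, a signalling chain of the T cell receptor, had log2 levels of 6.39 in carcinoma GFP and 5.99, 5.86 and 6.24 in carcinoma 1 to 3, against 6.15, 5.81 and 6.38 in papilloma GFP, 1 and 2. The carcinoma values lie wholly within or near the papilloma range (difference 0.01, 95% interval −0.50 to 0.51). Cd8a, the CD8 coreceptor of cytotoxic T cells, differed by −0.40 (SE 0.35), Cd3d by −0.31 (SE 0.42) and Cd79b, a signalling chain of the B cell receptor, by −0.09. For Cd8a the highest array was papilloma 2 at 7.31, with the other 6 arrays between 5.81 and 6.44.

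**Figure D3:**
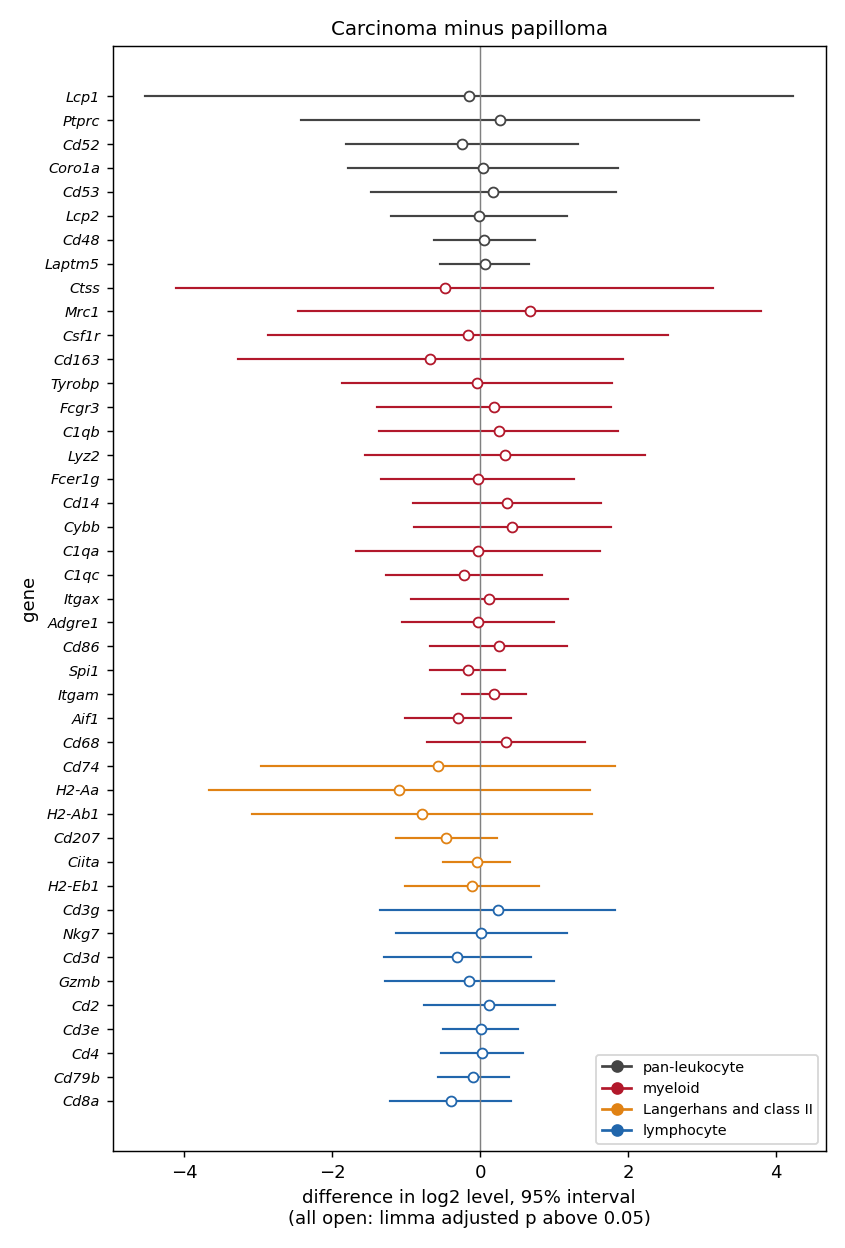
Carcinoma minus papilloma difference in log2 level (horizontal axis) with its 95% interval for each of the 43 immune cell genes, coloured by lineage group. All intervals cross 0, and the 6 Langerhans and class II genes lie below 0.

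Within the tagged pair, carcinoma GFP lay above papilloma GFP for 34 of 43 members, with a median difference of 0.24. These were 8 of 8 pan-leukocyte, 15 of 20 myeloid, 3 of 6 Langerhans and class II and 8 of 9 lymphocyte genes, against 10353 of all 18193 genes, whose median was 0.05. With 1 array on each side this difference has no replicate check. Among the untagged arrays the medians were 0.00 for pan-leukocyte, 0.11 for myeloid and −0.14 for lymphocyte genes.

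The untagged arrays also differed among themselves. Carcinoma 3 was the lowest of the 5 for 24 of 43 members (55.8%), against 24.7% of all genes, and for 14 of 20 myeloid genes. Ctss, which encodes cathepsin S, the protease that trims the invariant chain in antigen-presenting cells, was at 4.63 in carcinoma 3, against 7.27 to 8.28 in the other untagged arrays. Lyz2, the lysozyme of macrophages and neutrophils, ran from 5.64 in carcinoma 3 to 8.70 in carcinoma 1, the widest untagged range but for Ctss. C1qa, a chain of the first complement component made by macrophages, had 7.25 in carcinoma 1, 6.68 in carcinoma 2 and 4.70 in carcinoma 3, against 5.98 and 6.21 in papilloma 1 and 2. Carcinoma 1 was the highest untagged array for 12 of 20 myeloid genes (15.9% of all genes), and papilloma 2 for 5 of 6 Langerhans and class II and 5 of 9 lymphocyte genes (31.1% of all genes). These ranks describe single arrays and were not tested.

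Against the untagged arrays, the GFP-tagged arrays had higher levels of part of the genes in each of the 4 groups. With limma, 24 of 43 members were called higher and 0 lower at an adjusted p under 0.05, against 13.2% of all genes called higher and 8.94% called lower (22.1% in all). The median difference over the members was 1.18, against −0.05 over all genes. Both tagged arrays lay above all 5 untagged arrays for 29 of 43 members, against 21% of all genes, and below them for 0 members, against 19.9% of all genes. In the endothelial list 15 of 15 genes were called higher, in the fibroblast list 11 of 13, and in the keratinocyte list 10 of 14 were called lower. The 3′ minus 5′ control differences given above moved with the tag in every array. The part of these lists and control differences in the immune gene differences was not tested.

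The pan-leukocyte genes were called higher in 4 of 8, with a median difference of 1.54. Lcp1 encodes L-plastin, the actin-bundling protein of leukocytes, and gave the largest difference of all members. Its log2 levels were 9.89 in carcinoma GFP and 9.74 in papilloma GFP, compared with 5.24, 5.82 and 3.51 in carcinoma 1 to 3 and 5.05 and 4.01 in papilloma 1 and 2. The tagged arrays lay far above every untagged one, and the difference was 5.09 (SE 0.58, limma adjusted p = 0.000777), a 34.0-fold ratio of geometric means. Ptprc, whose levels are given above, averaged 8.63 ± 0.47 in tagged arrays (SD, n = 2) and 5.57 ± 0.65 in untagged arrays (SD, n = 5), and the difference was 3.06 (SE 0.43, limma adjusted p = 0.0022).

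Cd52 had log2 levels of 7.87 in carcinoma GFP and 7.43 in papilloma GFP, compared with 5.38 to 6.22 in the untagged arrays, and rose by 1.78 (limma adjusted p = 0.00283). Lcp2 encodes SLP-76, an adaptor of T cell and platelet signalling. It had 6.61 and 5.79 in carcinoma GFP and papilloma GFP, against 4.61 to 5.11 in untagged arrays, a rise of 1.26 (limma adjusted p = 0.00902). Coro1a, the leukocyte actin regulator coronin 1A, had 8.45 and 7.89 in the tagged arrays, against 5.62 to 7.30 in untagged arrays. Its groups do not overlap, but the difference of 1.69 missed the threshold (limma adjusted p = 0.0528). Cd53 had 7.45 and 6.89 in the tagged arrays, against 4.55 to 6.65 in untagged arrays, and its difference of 1.38 did not pass either (limma adjusted p = 0.112). Cd48, an adhesion ligand of leukocytes, differed by 0.57 and Laptm5 by −0.18.

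Of the myeloid genes 13 of 20 were called higher and all 20 had a difference above 0, with a median of 1.22. Csf1r, the receptor through which macrophages depend on colony-stimulating factor 1, had log2 levels of 9.88 in carcinoma GFP and 9.61 in papilloma GFP, compared with 7.18, 6.47 and 6.02 in carcinoma 1 to 3 and 6.40 and 6.67 in papilloma 1 and 2. The gap between the groups exceeds the range within the untagged arrays, and the difference was 3.20 (SE 0.29, limma adjusted p = 0.000258). Tyrobp averaged 7.89 ± 0.03 in tagged arrays (SD, n = 2) and 5.84 ± 0.45 in untagged arrays (SD, n = 5), and the difference was 2.05 (SE 0.30, limma adjusted p = 0.0026). The exact permutation test of Tyrobp, as of Ptprc, Lcp1, Ctss, Cd74 and H2-Aa, gave p = 0.0952 (two-sided), the smallest that 21 splits of 2 against 5 arrays allow.

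Ctss, whose promoter is shown above, had log2 levels of 11.09 in carcinoma GFP and 10.55 in papilloma GFP, compared with 7.82, 8.28 and 4.63 in carcinoma 1 to 3 and 7.47 and 7.27 in papilloma 1 and 2. It rose by 3.73 (SE 0.88, limma adjusted p = 0.0198). Mrc1, the mannose receptor found on macrophages and on lymphatic endothelium, had 9.61 and 8.16 in carcinoma GFP and papilloma GFP, against 4.44 to 6.53 in untagged arrays, and rose by 3.36 (limma adjusted p = 0.0117). Cd163, the haemoglobin scavenger receptor of macrophages, had 6.56 in carcinoma GFP and 8.19 in papilloma GFP, compared with 3.69 to 5.72 in untagged arrays, and rose by 2.78 (limma adjusted p = 0.0145). Of the tagged pair, carcinoma GFP was higher for Mrc1 and papilloma GFP for Cd163. Fcgr3, a low-affinity receptor for immunoglobulin G, had 7.21 and 6.999 in the tagged arrays, against 4.74 to 6.21 in untagged arrays, and rose by 1.55 (limma adjusted p = 0.0325). The calls of Ctss and Fcgr3 were lost without either tagged array, that of Mrc1 without carcinoma GFP (2.64, limma adjusted p = 0.127) and that of Cd163 without papilloma GFP (1.96, limma adjusted p = 0.14), and Fcgr3 also lost its call without papilloma 1.

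The other 7 called myeloid genes were the lipopolysaccharide coreceptor Cd14, the integrin chain Itgax (CD11c), the Fc receptor adaptor Fcer1g, the macrophage surface receptor Adgre1, the complement chains C1qb and C1qc, and Cd86, a costimulatory ligand. Their differences ran from 0.996 for Cd86 to 1.54 for C1qb. All 7 calls were lost without carcinoma GFP, and those of Cd14, Fcer1g, Adgre1, C1qb and C1qc also without papilloma GFP. Of these, Cd14 lost its call also without carcinoma 2 or papilloma 1, Fcer1g without papilloma 1 and Adgre1 without carcinoma 2, and C1qb kept it only when carcinoma 1 was left out. Of those not called, Lyz2 differed by 1.33, Cybb, the catalytic subunit of the phagocyte oxidase, by 1.18 and C1qa by 1.17. Spi1 differed by 0.33, Itgam by 0.21, Aif1 by 0.16 and Cd68, a lysosomal protein of macrophages, by 0.03. Cd68 was at 6.81 and 6.13 in carcinoma GFP and papilloma GFP, inside the untagged range of 5.45 to 7.18.

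**Figure D4:**
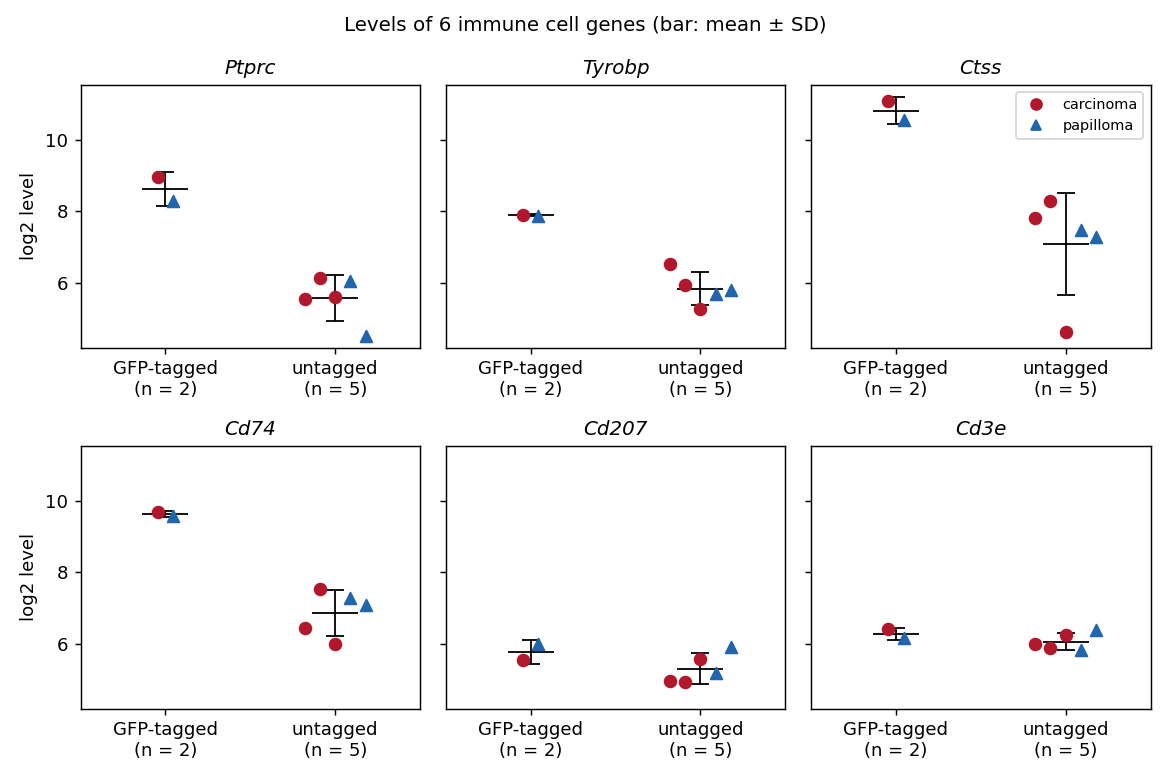
Log2 levels of Ptprc, Tyrobp, Ctss, Cd74, Cd207 and Cd3e in the 2 GFP-tagged and 5 untagged arrays, with circles for carcinoma, triangles for papilloma and bars for the mean ± SD. The first 4 genes have no overlap between tagged and untagged arrays, while Cd207 and Cd3e overlap.

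Of the Langerhans and class II genes 3 of 6 were called higher, with a median difference of 1.45. These 3 were the class II genes Cd74 (2.76, SE 0.41, limma adjusted p = 0.0026), H2-Aa (2.69, SE 0.72, limma adjusted p = 0.0325) and H2-Ab1 (2.43, SE 0.59, limma adjusted p = 0.0224). Cd74 averaged 9.63 ± 0.09 in tagged arrays (SD, n = 2) and 6.86 ± 0.64 in untagged arrays (SD, n = 5). The tagged levels of all 3 genes, given above, lay above every untagged level. For H2-Ab1 the call depends on the probe set: its other probe sets gave differences of 0.98 and 0.99, and the brightest without an _x_at or _s_at suffix, which marks probes shared with other sequences, had an adjusted p of 0.352 (limma). The call of H2-Ab1 was also lost without either tagged array, and that of H2-Aa without carcinoma GFP, papilloma GFP, carcinoma 1 or papilloma 1, with differences of 2.56 to 2.82.

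The remaining 3 did not pass the test. Cd207, the Langerhans cell gene, differed by 0.47 (SE 0.31, limma adjusted p = 0.334), with tagged levels that overlap the untagged ones. H2-Eb1, whose promoter carries the same Y box letters as H2-Aa, had log2 levels of 6.64 in carcinoma GFP and 6.48 in papilloma GFP, compared with 6.82, 6.26 and 6.63 in carcinoma 1 to 3 and 6.01 and 7.61 in papilloma 1 and 2. Its difference was −0.11, inside the spread of the untagged arrays (SD 0.62, n = 5). Ciita had 5.14 and 5.17 in the tagged arrays, against 4.69 to 5.23 in untagged arrays, a difference of 0.21 (95% interval −0.21 to 0.63).

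The lymphocyte genes were called higher in 4 of 9, with a median difference of 0.79. Cd3g, the gamma chain of CD3, had log2 levels of 6.15 in carcinoma GFP and 4.53 in papilloma GFP, compared with 3.50 to 3.88 in untagged arrays, and rose by 1.64 (SE 0.38, limma adjusted p = 0.0191). Cd3d, the delta chain, had 6.12 and 5.96 in the tagged arrays, against 4.73 to 5.22 in untagged arrays, and rose by 1.14 (limma adjusted p = 0.00415). Nkg7, a granule protein of cytotoxic lymphocytes, had 6.16 and 5.47 in the tagged arrays, against 4.28 to 4.70 in untagged arrays, and rose by 1.27 (limma adjusted p = 0.00515). Gzmb, the protease granzyme B, had 6.45 and 5.73 in the tagged arrays, against 4.37 to 5.48 in untagged arrays, and rose by 1.07 (limma adjusted p = 0.0485). In these 4 genes carcinoma GFP was the higher of the tagged pair. Without that array none of the 4 was called, with differences of 1.06 for Cd3d, 0.83 for Cd3g, 0.93 for Nkg7 and 0.71 for Gzmb, and Gzmb kept its call only without papilloma 2. The call of Lcp2 among the pan-leukocyte genes was likewise lost without carcinoma GFP (0.86, limma adjusted p = 0.0897).

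Cd2, an adhesion receptor of T and NK cells, had log2 levels of 5.43 in carcinoma GFP and 4.47 in papilloma GFP, compared with 3.91 to 4.41 in untagged arrays, and its difference of 0.79 did not pass (limma adjusted p = 0.0764). Cd3e differed by 0.22 (exact two-sided permutation p = 0.381), Cd4 by 0.21, Cd79b by 0.09 and Cd8a by −0.19. Of the 3 CD3 chains Cd3d and Cd3g passed the test and Cd3e did not, and whether the chains differed from each other was not tested.

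**Figure D5:**
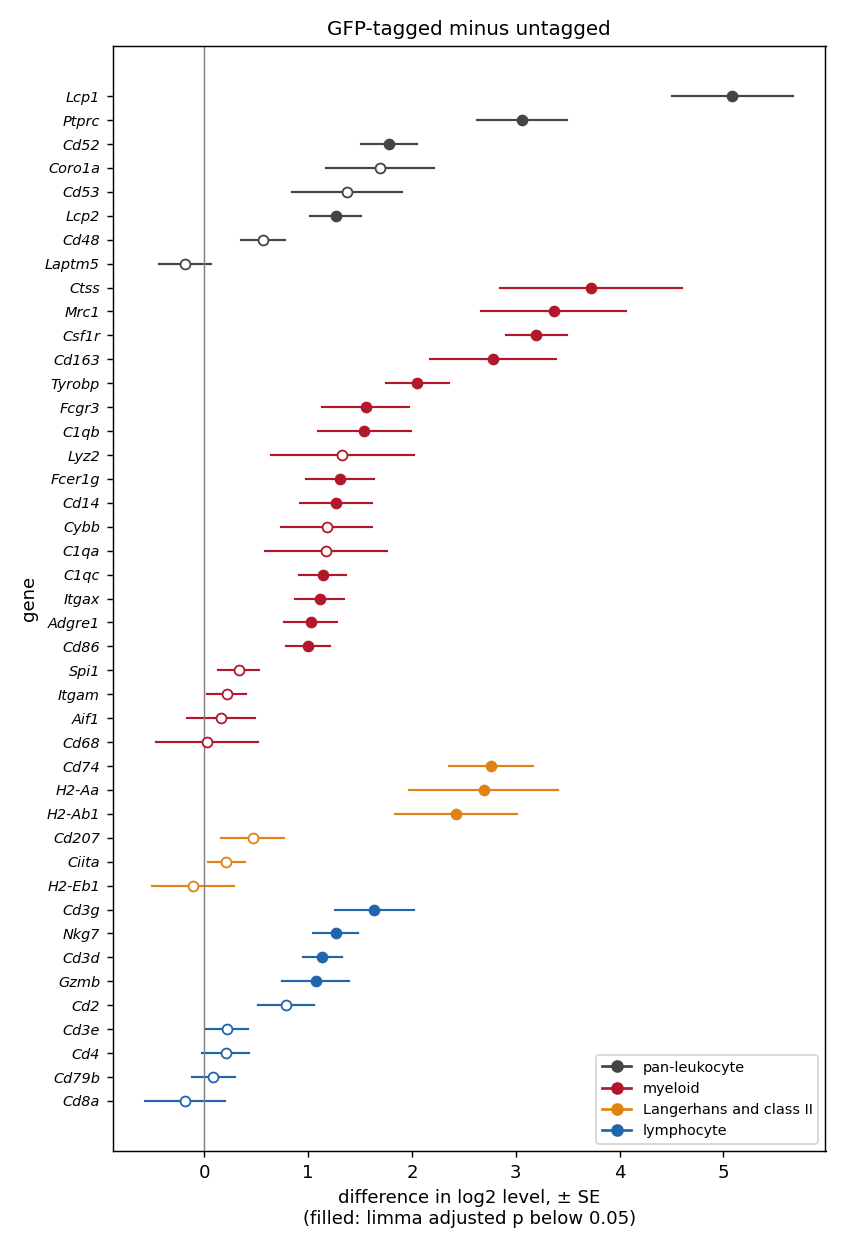
GFP-tagged minus untagged difference in log2 level (horizontal axis) with its SE for each of the 43 immune cell genes, coloured by lineage group, with filled circles for limma adjusted p below 0.05. The 24 filled circles all lie above 0, and Lcp1 lies farthest at 5.09.

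Many calls did not hold when an array was left out. Without 1 of the tagged arrays a single one remains, which is assumed to vary like the untagged arrays. Of the 24 called members 6 were called without each array in turn: Ptprc, Cd52, Lcp1, Csf1r, Tyrobp and Cd74. Without carcinoma GFP 7 of 43 members were called, all higher, against 6.3% of all genes, and without papilloma GFP 14, against 8.45% of all genes, of which 13 were among the 24. With tumour type as a covariate 22 of the 24 were called. Centring each array on its median over all genes, which moves the median difference of all genes to −0.28 and the share of all calls that are higher to 40.0%, against 59.6% in the values as deposited, called 21 members, all higher. After quantile normalization the share was 48.2% and 23 members were called, all higher.

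Members with several probe sets show how far a level depends on the probes. Of the 15 such members 9 had the same sign of the tag difference over all their probe sets and 6 did not. Laptm5, at −0.18 by its brightest probe set, reached 10.52 in carcinoma GFP and 10.11 in papilloma GFP on another, against 4.05 to 6.49 in untagged arrays, a difference of 4.78. Csf1r had differences of 3.20, 1.53 and 0.04 over its 3 probe sets, all above 0. Lcp1 had 5.09 and 3.31, and Coro1a had 1.69 on the probe set used and 2.38 on its next. H2-Aa had 2.69 on the probe set used and 3.37, 2.23 and 0.46 on the others. Ptprc had 3.06 on the probe set used and −0.12 on its other, dimmer one (mean 3.695 against 6.443), so its signs differ.

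Whether the tag difference itself differed between tumours was tested as an interaction, in a fit with 3 residual degrees of freedom in which each single tagged array is assumed to vary like the untagged groups. No member was called (limma, 0 of 43, against 0.0% of all genes). At an unadjusted p under 0.05 the fit found 4 members and 389 genes in all (2.14%). These 4 were Cd3g, with a tag difference of 2.50 in carcinoma and 0.74 in papilloma, Aif1 with 0.77 and −0.59, Cd2 with 1.32 and 0.23, and Lcp2 with 1.76 and 0.73. The interaction of Cd3g was 1.76 (SE 0.39, limma adjusted p = 1). The tag differences of Ptprc were 3.20 in carcinoma and 3.01 in papilloma, those of Tyrobp 2.0 and 2.14, and those of Cd74 3.05 and 2.37.

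Further genes of leukocytes were read from 6 more lists, whose counts with the tag stand against 13.2% of all genes called higher. For the tumour type 0 of their genes were called (limma) and 1, the neutrophil protein gene S100a8, had an unadjusted p under 0.05 (difference −2.44, adjusted p = 1). The other neutrophil genes did not move together: S100a9 differed by −1.72 and Ltf by 0.82. Csf3r, Cxcr2, Elane, Mpo, Ngp and Camp differed by −0.08 to 0.06. Of 16 further leukocyte signalling genes 6 (37.5%) were called higher with the tag and 0 lower, led by the kinase Syk (2.41), the lipid phosphatase Inpp5d (2.39) and the platelet and leukocyte protein Plek (2.24). Of 23 further macrophage and monocyte genes 8 (34.8%) were higher and 1 lower, the galectin Lgals3 (−0.69). The largest differences were those of Csf2rb, the shared beta chain of cytokine receptors (4.90), Lyve1, a hyaluronan receptor of lymphatic endothelium and of some macrophages (4.12), and Pf4, a chemokine of platelets and macrophages (2.10). Of 18 further dendritic cell, Langerhans cell and class II genes 7 (38.9%) were higher and 0 lower, led by the costimulatory receptor Cd40 (2.87), the integrin chain Itgae (2.44) and the transcription factor Irf8 (2.36).

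Of 21 further T and NK cell genes 3 (14.3%) were higher, a share near that of all genes, and 0 lower: Thy1 (4.06), which fibroblasts also carry, Il7r, the interleukin 7 receptor (2.12), and Ctla4, an inhibitory receptor of T cells (2.03). Of 9 B cell genes 1 (11.1%, below the share of all genes) was higher, Jchain, the joining chain of secreted antibodies (1.66), and 0 were lower, while Blnk, a B cell adaptor, differed by −2.06 (limma adjusted p = 0.0624) and Ms4a1, which encodes CD20, by −0.49. Of 16 neutrophil and mast cell genes 5 (31.2%) were higher and 0 lower, all 5 from the mast cell part of the list. They were led by the stem cell factor receptor Kit (3.56), the mast cell protease Cpa3 (2.22) and the high-affinity IgE receptor chain Fcer1a (1.80). Ms4a2 (1.51) and Hdc (0.72) followed, while Mcpt4 (0.42) and Tpsb2 (0.56) were not called. No neutrophil gene was called, with differences from −0.66 for Ltf to 0.75 for S100a8. The median tag differences of these lists ran from 0.05 for B cell genes to 0.46 for dendritic and class II genes, against −0.05 over all genes and 1.18 over the 43 members.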

How the data were processed

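RNA of 7 samples was measured on mouse Affymetrix arrays. The authors deposited log2 values (2.72 to 14.51) normalized with RMA, per the labels' protocols; the log2 scale was inferred from the values. The labels name a PM strip design, while gene names come from GEO's 2016 annotation of the probe set names, so they rest on that match. Of 45101 probe sets, 64 were controls and 34945 others had 1 symbol, which gave 18193 genes. Affymetrix arrays give no read depth, and the number of arrays limits the precision.

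All genes were fitted with limma 3.58.1 (R 4.3.3; lmFit, eBayes) and p-values adjusted by Benjamini-Hochberg over 18193 genes at 0.05: carcinoma minus papilloma and GFP-tagged minus untagged without covariates, and their interaction with 4 groups. Exact permutation tests used all splits of the arrays. Plots were made in Python 3.11.15 with matplotlib 3.10.9.

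The members and lists were chosen with earlier results of these data known. Named were 1 defining gene per lineage and, per group, up to 6 members with the largest tag difference and 3 with the smallest unadjusted tumour p, and up to 3 genes per further list; Cd14, C1qa, Lyz2, Cd68 and others outside this rule were named after their values were seen. Carcinoma and papilloma arrays share the replicate numbers 1, 2 and GFP. Deviations from the group means correlated at 0.476, 0.194 and 0.861 within these pairs. The group means held the tagged arrays, so the tag difference entered each correlation, and arrays with unlike numbers were not compared. The correlations therefore cannot decide the pairing, and taking the numbers to pair the arrays is an assumption.

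On simulated data with 200 of 18193 genes changed, the tumour comparison recovered 0, 117 and 182 at log2 changes of 1, 2 and 4, and the tag comparison 0, 161 and 195. In the data 4027 genes were called with the tag, so these counts do not set the smallest tag difference that can be called. Alternatives were the probe set choice, a filter on dim genes, scaling, array weights, the variance prior, covariates, the block and leaving out each array.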

Additional observations from a re-analysis of the deposited data

Results flagged for a closer look

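In 60 sets of levels over 30 genes, a gap test for a lone sample marked 3, no more than the 1 set in 20 that chance marks. Cd3d was at 6.12 in carcinoma GFP, against 4.73 to 4.77 in the other carcinoma arrays. Cd3g was at 6.15 in carcinoma GFP, against 3.50 to 3.88 in the other carcinoma arrays. Both sit in the array that carries the tag. Genes entered this test in part for a large tag difference, so a lone high value in carcinoma GFP is favoured by that choice. Ctss was at 4.63 in untagged carcinoma 3, against 7.27 to 8.28 in the other untagged arrays, and this is the array in which 24 of 43 immune genes had their lowest untagged level.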

How the results depend on the processing

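In the tumour comparison 0 members and 0 genes were called under every alternative run, the replicate block included, which changed no call; with the block 6 members had an unadjusted p under 0.05. Uncalled tumour differences changed sign: Cd3e with array weights (−0.005), the replicate block (−0.03) and without both GFP arrays (−0.064), Cd52 with the block (0.047), Cd8a without _x_at and _s_at probe sets (0.25), Laptm5 as the mean of its probe sets (−0.061) and without both GFP arrays (−0.20), Ptprc with array weights (−0.19), and Tyrobp with the block (0.34), the tag as a covariate (0.13) and without both GFP arrays (0.17). Leaving out each array in turn, they ranged from −0.14 to 0.14 for Cd3e, −0.78 to 0.21 for Cd52, −0.22 to 0.75 for Cd53, −1.33 to 0.22 for Cd74, −0.23 to 0.079 for Cd79b, −0.66 to 0.01 for Cd8a, −0.15 to 0.34 for Laptm5, −0.62 to 1.27 for Ptprc and −0.54 to 0.67 for Tyrobp. These ranges include the fits without 1 tagged array, which mix tumour type with the tag. For the tag, Cd3e was −0.015 with centred arrays and −0.06 after quantile normalization, and Ciita was −0.022 with centred arrays. H2-Eb1 was 0.22 with array weights and −0.28 to 0.12 leaving out each array. Tag calls over all genes numbered 6477 with array weights and 1739 to 4802 leaving out each array, against 4027. Member calls, 24 as reported, numbered 28 with array weights, 26 with trend and robust eBayes and 7 to 24 leaving out each array. With genes below the median level left out, which keeps 9 members and no lymphocyte gene, 7 members were called and the medians were 0.76 (pan-leukocyte), 2.26 (myeloid), 2.69 (Langerhans and class II) and 2.43 (all members). That filter used the mean over all arrays, so high tagged values help a gene to pass. Csf1r and Coro1a passed the cut of 6.638 with untagged means of 6.549 and 6.475. These medians and calls are therefore not independent of the tag difference. Without _x_at and _s_at probe sets, which drops H2-Aa, the Langerhans and class II median was 0.47. The lymphocyte median ran from 0.31 to 1.21 leaving out each array. In the interaction, eBayes with trend and robust called 3 genes and 0 members, against 0. The causes were not tested. With 7 arrays, changes of 1 on the log2 scale were not recovered in simulated data with 200 of 18193 genes changed. The tag comparison called 4027 genes, which makes its adjusted threshold less strict. Tag differences near 1, such as 0.996 for Cd86, were called there.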
